A study of Mus musculus with 2 samples.

Results

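The receptors described here are 4 genes through which lung group 2 innate lymphoid cells (ILC2s) can read signals of nerves and of extracellular adenosine: Nmur1, Vipr1, Vipr2 and Adora2a. They were given as a list of receptor genes, with no cut on a measured value, and all 4 are among the 32285 genes of the count tables. A barcode counted as a cell when 500 or more genes were detected in it and its mitochondrial transcripts did not exceed 10%, which left 8394 of 10866 WT and 7087 of 9495 Pac1-/- barcodes.

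The study made 1 droplet library of lung ILC2s from WT mice and 1 from Pac1-/- mice, both on a C57BL/6J background, to ask what the phosphatase PAC1 (gene symbol Dusp2) does in these cells. The knockout is in the whole animal. The cells were sorted alive as Lineage- CD90.2+ ST2+ Sca-1+ and pooled over several mice of a genotype, and no label assigns a cell to a mouse. With 1 library per genotype no difference between genotypes has a replicate check, so none carries a p-value. Every interval below is a 95% interval that covers counting error only, not the spread between mice.

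NMUR1 is the Gq-coupled receptor for neuromedin U, a peptide of cholinergic neurons that is known to activate ILC2s within minutes and to raise their IL-5 and IL-13. VIPR1 and VIPR2 (also VPAC1 and VPAC2) are Gs-coupled receptors for vasoactive intestinal peptide, released by sensory and other neurons, and also bind the related peptide encoded by Adcyap1. ADORA2A is a Gs-coupled receptor for adenosine, which accumulates outside stressed cells, and in lymphocytes it raises cAMP and mostly restrains their responses. IL-5 and IL-13 are the signature cytokines of ILC2s, and Calca encodes CGRP, a neuropeptide that ILC2s themselves can make.

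In the GENCODE annotation of GRCm38 (mm10), Nmur1 lies on the minus strand of chromosome 1 from 86386303 to 86426228. Vipr1 lies on the plus strand of chromosome 9 from 121642716 to 121672954, Vipr2 on the plus strand of chromosome 12 from 116077726 to 116146261, and Adora2a on the plus strand of chromosome 10 from 75316877 to 75334784. Vipr2 is overlapped on the opposite strand by the antisense gene Gm20658, to which 68 WT and 53 Pac1-/- UMIs were assigned. Whether the counting used strand is not given in the sources used here.

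The 250 bases before the annotated start of each gene are shown because the receptor pair for one peptide, Vipr1 and Vipr2, turned out to lie at opposite ends of the expression range. They are RefSeq promoter windows of GRCm38.p6, found for 3 of the 4 genes, each printed 5′ to 3′ on the strand of the gene. Capitals mark TGACG, the core of the cAMP response element, and the GATA motif, which is GATA with A or T before it and A or G after it, both searched on both strands. None of the marked motifs overlap. The Vipr1 window is at chr9:121642466-121642715, the Vipr2 window at chr12:116077476-116077725, and the Nmur1 window, before the 5′-most of its 2 RefSeq starts, at chr1:86389362-86389611, which is an intron of a longer GENCODE transcript of Nmur1. The windows of Vipr1 and Vipr2 overlap no annotated transcript.
Vipr1: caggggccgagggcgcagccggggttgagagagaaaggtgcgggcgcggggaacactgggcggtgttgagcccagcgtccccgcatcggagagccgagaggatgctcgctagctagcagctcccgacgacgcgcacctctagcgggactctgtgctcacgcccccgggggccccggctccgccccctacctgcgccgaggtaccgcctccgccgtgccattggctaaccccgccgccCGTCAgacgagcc
Vipr2: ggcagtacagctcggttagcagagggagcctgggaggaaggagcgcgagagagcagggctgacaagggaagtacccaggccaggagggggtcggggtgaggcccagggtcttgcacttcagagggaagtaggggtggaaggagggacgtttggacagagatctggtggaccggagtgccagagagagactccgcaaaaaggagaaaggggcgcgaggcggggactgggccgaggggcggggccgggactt
Nmur1: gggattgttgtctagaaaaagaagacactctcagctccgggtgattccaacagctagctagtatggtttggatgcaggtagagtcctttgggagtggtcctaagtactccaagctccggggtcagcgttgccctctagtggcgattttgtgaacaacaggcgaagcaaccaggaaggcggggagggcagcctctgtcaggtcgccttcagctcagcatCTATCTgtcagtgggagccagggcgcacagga

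The Vipr1 window held 30 CG dinucleotides and was 72.8% G or C, the Vipr2 window 13 and 65.2%, and the Nmur1 window 8 and 55.2%. The median over all 32851 RefSeq windows of this length was 6 CG dinucleotides and 52.4% G or C, so that the least expressed receptor had the window richest in CG. TGACG was found once, in the Vipr1 window, on its minus strand 13 bases before the start, and 17.8% of all windows held it. Among the printed windows the GATA motif was found once, in that of Nmur1, on its minus strand 32 bases before the start. The window before the other Nmur1 start, which overlaps exons and is not printed, held 2 CG dinucleotides, was 46.8% G or C, and had the GATA motif 133 bases before the start, and 26.5% of all windows held it. A match in these letters is a description of the window, not a binding site.

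The targeted gene separated the libraries as labelled. Dusp2 gave 1419 UMIs in WT cells (26 CPM) and 5 in Pac1-/- cells (0.0857 CPM). A UMI (unique molecular identifier) marks 1 captured transcript, and CPM is the number of UMIs of a gene in 1000000 UMIs of the cells summed. WT cells held 54579034 UMIs with a median of 4186.5 per cell, and Pac1-/- cells 58338886 with a median of 5577. All 9 ILC2 markers were found in both libraries, at 84.3 to 2265 CPM in WT and 85.4 to 1686 CPM in Pac1-/- cells. Markers of 9 other cell types summed to between 0.696 CPM for the NK or ILC1 list and 60.4 CPM for the B list in WT, and to between 0.994 and 79.5 CPM in Pac1-/- cells. The largest single contributors were Ighm, Pecam1 and Scgb1a1, and 4 of 5 myeloid markers were at 0 in WT against 1 of 5 in Pac1-/- cells. Barcodes over 2 times the median UMIs, which can hold more than 1 cell, were 21.5% of the WT and 19.4% of the Pac1-/- cells, and 15 cell barcodes occurred in both libraries.

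Vipr2 was the most abundant of the 4 receptors and Vipr1 was close to undetected. The 3′ chemistry counts transcripts largely irrespective of their length, so these levels are set side by side without a step for length. Other differences between genes in how well their transcripts are captured were not tested. Vipr2 gave 7651 UMIs in WT and 5447 in Pac1-/- cells, levels of 140 CPM (137 to 143) and 93.4 CPM (90.9 to 95.9). Adora2a gave 3931 and 3340 UMIs, or 72.0 CPM (69.8 to 74.3) and 57.3 CPM (55.3 to 59.2). Nmur1 gave 351 and 479 UMIs, or 6.43 CPM (5.78 to 7.14) and 8.21 CPM (7.49 to 8.98). Vipr1 gave 9 and 11 UMIs, or 0.165 CPM (0.0754 to 0.313) and 0.189 CPM (0.0941 to 0.337). The order Vipr2, Adora2a, Nmur1, Vipr1 was the same in both libraries, and no interval of 1 receptor reached that of its neighbour in that order. By level Vipr2 ranked 925th among all genes in WT and 1491st in Pac1-/- cells, Adora2a 1882nd and 2462nd, and Nmur1 8049th and 7858th.

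**Figure D1:**
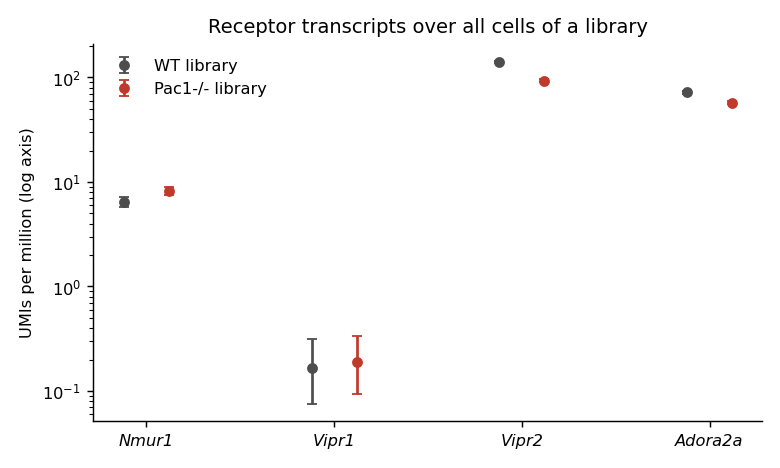
Level of each receptor over all cells of a library, in CPM on a log axis; points are the WT and the Pac1-/- library and bars are exact Poisson intervals. Vipr2 sits at 140 and 93.4, Adora2a at 72.0 and 57.3, Nmur1 at 6.43 and 8.21, and Vipr1 at 0.165 and 0.189.

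Of the receptors, Vipr2 was the member that lay past a 1.5-fold difference between genotypes, being lower in the Pac1-/- library. The comparison covered the 12427 genes with at least 50 UMIs in both libraries together, whose median log2 ratio of Pac1-/- over WT was 0.19, and ratios are given relative to that median. Vipr2 had a log2 ratio of -0.77 (-0.82 to -0.72), or -0.59 as counted, with WT and Pac1-/- intervals far apart. Adora2a pointed the same way with -0.52 (-0.59 to -0.45), short of 1.5-fold, and -0.33 as counted. Nmur1 had a log2 ratio of 0.16 (-0.04 to 0.37), an interval that includes 0, and 0.35 (0.15 to 0.56) as counted, which excludes it. Vipr1 was under the UMI minimum and was not compared. Among all genes 12.8% were at least 1.5-fold lower and 8.22% at least 1.5-fold higher in the Pac1-/- library on that scale, against 8.34% lower and 16.9% higher as counted, so that the value of Vipr2 lay in the outer part of a broad distribution and not alone.

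**Figure D2:**
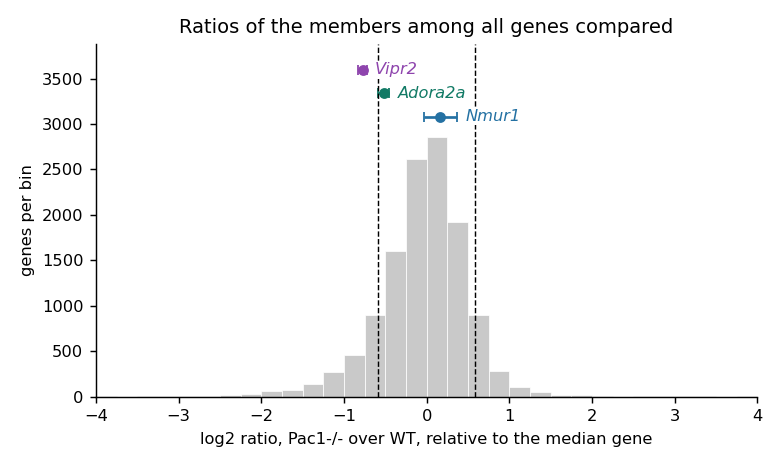
Number of genes in each bin of the log2 ratio of Pac1-/- over WT relative to the median gene, for the 12427 genes compared, with the receptors as points, their exact binomial intervals as bars and 1.5-fold as dashed lines. Vipr2 at -0.77 lies past the lower line, Adora2a at -0.52 just inside it and Nmur1 at 0.16 near the middle.

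The share of cells in which a receptor was found depends on how many transcripts were read per cell, so 1500 UMIs were drawn at random from each cell (thinning). This left out 760 WT and 523 Pac1-/- cells with fewer UMIs and kept 7634 and 6564. At that depth Vipr2 was detected in 18.6% of the WT library (17.8 to 19.5) and 13.2% of the Pac1-/- library (12.4 to 14.1), a difference of -5.42 percentage points (-6.62 to -4.21), and from -7.02 to -5.34 points over 20 thinnings. Adora2a was found in 8.86% (8.23 to 9.51) and 7.28% (6.67 to 7.94), a difference of -1.57 points (-2.48 to -0.67). In cells past a stricter marker gate (Gata3 or Il1rl1 present, under 2 UMIs of other cell types) the Adora2a difference was -1.02 points (-2.12 to 0.09), an interval that includes 0. Nmur1 was found in 1.03% (0.820 to 1.29) and 1.17% (0.927 to 1.46), and the difference of 0.14 points had an interval from -0.21 to 0.50, while thinned to 1000 UMIs it was 0.34 points (0.05 to 0.64). Vipr1 was found in 2 WT and 3 Pac1-/- cells.

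Without thinning the shares were 46.1% and 41.8% for Vipr2, 27.6% and 27.4% for Adora2a (a difference of -0.19 points; -1.61 to 1.23), and 3.87% and 6.11% for Nmur1. The unthinned shares of Nmur1 were farther apart than its levels, and the Pac1-/- cells were the deeper ones. Most thinned cells that held a receptor held 1 UMI of it, namely 1177 of 1422 WT cells for Vipr2, 616 of 676 for Adora2a and 77 of 79 for Nmur1. No thinned cell held more than 4 UMIs of any of the receptors, against up to 34 of Il5. With so few transcripts, a cell without a UMI cannot be called a cell without the receptor.

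Variation of the receptor counts between cells was a little above that of random sampling. The variance of Vipr2 counts divided by their mean was 1.15 in WT and 1.04 in Pac1-/- cells, that of Adora2a 1.09 in both, and that of Nmur1 1.04 in both, where counting alone gives about 1. Genes with a mean like that of Vipr2 had a median of 1.079 in WT and 1.05 in Pac1-/- cells, those like Adora2a 1.052 and 1.034, and those like Nmur1 1.030 and 1.019. Among genes of like mean Vipr2 was above 80.7% in WT and 45.4% in Pac1-/- cells, Adora2a above 78.8% and 87.9%, and Nmur1 above 57.7% and 65.9%. For Il5 it was 5.85 and 5.69, and for Il13 3.91 and 4.58. These ratios depend on the mean, which was higher for the cytokines, so they cannot be compared directly with those of the receptors. Among genes of like mean Il5 was above 100% in both libraries, and Il13 above 99.7% in WT and 99.4% in Pac1-/- cells. Each receptor ranked lower among its own genes of like mean.

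A cell type that should lack the receptors was sought to measure the background from free RNA, but these libraries held too few such cells. Of the barcodes that held at least 2 of 6 B cell markers, 68 in WT and 138 in Pac1-/- cells, most counted through Ighm, and their Gata3 level (1262 and 1151 CPM) was close to that of all cells. Vipr2 was found in 16.2% of these thinned WT barcodes (median 13777.5 UMIs) and in 10.1% of the Pac1-/- ones (median 11495 UMIs), Adora2a in 19.1% and 4.35%, and Nmur1 in 1 barcode of each. With Ighm left out of the B markers, a choice made after seeing the data, 10 and 24 barcodes remained, and their Gata3 level was still 1254 and 825 CPM. Vipr2 and Adora2a were each found in 1 of those 10 WT barcodes (10%; 0.253 to 44.5). In the 24 Pac1-/- barcodes they were at 0, which by a limit of 3 counts allows up to 12.5% of such barcodes with a UMI. The part of free RNA in the shares of the 4 receptors was therefore not measured here.

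The level of Vipr2 was lower in Pac1-/- than in WT cells at every cell depth. In WT it was 153 CPM in cells under 2000 UMIs, 161 CPM from 2000 to 5000, 137 CPM from 5000 to 10000 and 129 CPM above 10000. In Pac1-/- cells it was 73.5, 107, 91.3 and 90.9 CPM in the same bands, and in no band did the intervals of the libraries overlap. Adora2a was at 57.4, 61.8, 70.9 and 79.3 CPM in the WT bands and at 48.5, 46.6, 51.9 and 63.5 CPM in the Pac1-/- bands, highest in the deepest cells of both libraries. Its intervals overlapped between libraries in cells under 2000 UMIs and not in the other 3 bands. Nmur1 was at 6.86, 6.99 and 6.08 CPM in the WT bands above 2000 UMIs and at 7.01, 8.28 and 8.57 CPM in the Pac1-/- bands, with intervals apart only above 10000 UMIs.

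**Figure D3:**
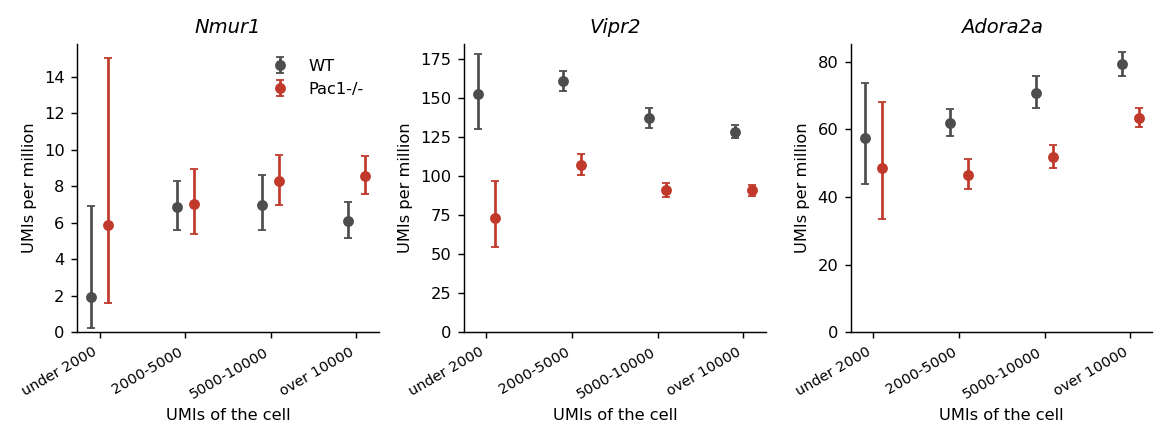
Level of Nmur1, Vipr2 and Adora2a in CPM by the number of UMIs of the cell, in each library, with exact Poisson intervals. Vipr2 is lower in Pac1-/- cells in all 4 bands, and Adora2a is highest in the deepest cells of both libraries, at 79.3 in WT and 63.5 in Pac1-/- cells.

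Cells were next divided by whether their 1500 UMIs held a transcript of Il5, Il13 or Calca, so that every member could be read in cytokine-positive and cytokine-negative cells of the same library. In WT 33.0% of cells had Il5, 13.8% Il13 and 30.6% Calca, and in Pac1-/- cells 19.6%, 9.11% and 21.6%. The receptors parted in direction: Adora2a was higher in Il5+ and Calca+ cells, Vipr2 was slightly lower, and Nmur1 was lower on few transcripts. In Pac1-/- cells the Vipr2 interval included 0 by Calca, and by Il5 in some settings given below. The main Nmur1 intervals of Pac1-/- cells included 0 for each status gene. In these contrasts the median gene had log2 ratios between -0.15 and -0.09, and values relative to that median are given beside the main ones. Cells with a status transcript were also deeper before thinning, with median UMIs of 5552 against 4133 for Il5 in WT and 7443.5 against 5584.5 in Pac1-/- cells. The part of depth was not tested.

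Nmur1 was found in 13 of 2519 Il5+ WT cells, or 0.516% (0.275 to 0.881), and in 1.29% (0.999 to 1.64) of 5115 Il5- WT cells. The log2 ratio of its mean count was -1.37 (-2.35 to -0.50). In Pac1-/- cells the shares were 0.935% and 1.23%, with a log2 ratio of -0.30 (-1.29 to 0.57). By Calca the log2 ratios were -1.21 (-2.19 to -0.34) in WT and -0.35 (-1.30 to 0.50) in Pac1-/- cells. By Il13 they were -1.0 (-2.49 to 0.19) and -0.91 (-2.82 to 0.51), from 6 and 4 UMIs in Il13+ cells. Relative to the median gene the Nmur1 values of WT and Pac1-/- cells were -1.24 and -0.16 by Il5, -1.09 and -0.24 by Calca and -0.91 and -0.77 by Il13. All 6 values were below 0, with or without that step, and the intervals of WT and Pac1-/- overlapped for each status gene, so that the smaller values of Pac1-/- cells were not shown to differ from those of WT. Their order also changed with the settings: thinned to 1000 UMIs, Nmur1 by Il5 was at -0.87 (-2.19 to 0.25) in WT and -1.97 (-4.29 to -0.36) in Pac1-/- cells, and by Calca at -0.90 (-2.31 to 0.27) and -1.32 (-2.99 to -0.01). With Il5 status read from all UMIs the values were -0.88 (-1.57 to -0.21) and -0.93 (-1.72 to -0.18). In cells past the marker gate the Calca value of Pac1-/- cells was 0.13 (-1.12 to 1.22).

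Read from all UMIs of the same cells, an alternative added after seeing the data that draws on more Nmur1 transcripts, the direction was the same. Il5+ WT cells held 4.15 CPM of Nmur1 (3.34 to 5.10) and Il5- WT cells 8.09 CPM (7.13 to 9.14), a log2 ratio of -0.96 (-1.32 to -0.61). In Pac1-/- cells the levels were 6.73 CPM (5.47 to 8.19) and 8.72 CPM (7.86 to 9.65), a log2 ratio of -0.37 (-0.71 to -0.05). By Il13 the log2 ratios were -0.55 (-1.06 to -0.07) and -0.63 (-1.17 to -0.14). By Calca they were -0.64 (-0.99 to -0.29) in WT and -0.19 (-0.51 to 0.12) in Pac1-/- cells.

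Vipr2 was found in 16.3% of Il5+ and 19.8% of Il5- WT cells, with a log2 ratio of -0.37 (-0.52 to -0.21), and in 11.5% and 13.6% of Pac1-/- cells, with -0.28 (-0.53 to -0.03). By Calca the log2 ratios were -0.33 (-0.49 to -0.17) and -0.18 (-0.42 to 0.05). By Il13 they were -0.12 and -0.17, both with intervals that include 0, while thinned to 3000 UMIs they were -0.18 (-0.31 to -0.05) and -0.32 (-0.53 to -0.11). Set against the median gene, the values of Vipr2 in WT and Pac1-/- cells were -0.24 and -0.13 by Il5, -0.21 and -0.07 by Calca and -0.03 and -0.03 by Il13. Read from all UMIs of the same cells, the values of Pac1-/- cells were -0.35 (-0.44 to -0.25) by Il5, -0.31 (-0.45 to -0.18) by Il13 and -0.17 (-0.27 to -0.08) by Calca, and those of WT -0.29 (-0.36 to -0.22), -0.08 (-0.18 to 0.01) and -0.31 (-0.38 to -0.24). On that reading Vipr2 was a little lower in Il5+ and Calca+ cells of both libraries. By Il13 its interval excluded 0 in the Pac1-/- library. The lower Vipr2 of Il5+ and Calca+ Pac1-/- cells depended on the setting. With status read from all UMIs the values were -0.14 (-0.33 to 0.05) by Il5 and -0.06 (-0.25 to 0.13) by Calca. Without barcodes over 2 times the median UMIs the Il5 value was -0.25 (-0.57 to 0.05). Past the marker gate the values by Il5 and Calca were -0.38 (-0.73 to -0.03) and -0.39 (-0.73 to -0.06).

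Adora2a was found in 11.04% (9.84 to 12.3) of Il5+ and 7.78% (7.06 to 8.55) of Il5- WT cells. Its level was 82.0 CPM in the former and 56.0 CPM in the latter, a 1.46-fold difference and a log2 ratio of 0.55 (0.33 to 0.76). The Pac1-/- library had shares of 9.66% and 6.70% and levels of 69.1 and 48.7 CPM, a log2 ratio of 0.50 (0.21 to 0.79). By Calca the log2 ratios were 0.51 (0.29 to 0.72) and 0.50 (0.21 to 0.78), from 81.3 against 57.3 CPM in WT and 68.3 against 48.4 CPM in Pac1-/- cells. Thinned to 1000 UMIs the Calca value of Pac1-/- cells was 0.19 (-0.22 to 0.57), an interval that includes 0. By Il13 they were 0.04 (-0.28 to 0.34) and 0.30 (-0.12 to 0.70), and relative to the median gene 0.12 (-0.19 to 0.43) and 0.44 (0.01 to 0.84). With Il13 status read from all UMIs the values were 0.39 (0.17 to 0.61) and 0.58 (0.30 to 0.85), so that the small value of WT depended on how the status was read. On the main scale the intervals by Il5, Il13 and Calca overlapped in both libraries, those by Il5 and Il13 in WT only just. Relative to the median gene the WT interval by Il5 (0.46 to 0.89) lay above that by Il13. Read from all UMIs with the status unchanged, Adora2a was at 0.32 (0.23 to 0.41) and 0.38 (0.27 to 0.49) by Il5, 0.34 (0.25 to 0.44) and 0.29 (0.18 to 0.39) by Calca, and 0.04 (-0.09 to 0.16) and 0.23 (0.08 to 0.38) by Il13. On that reading the WT intervals by Il5 and Calca lay above that by Il13, while those of Pac1-/- cells overlapped.

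These values stand among those of 5008 genes with at least 200 UMIs in the thinned cells of each library. By Il5, 2.62% of genes were at least 1.5-fold higher in both libraries and 1.64% as much lower. By Calca the shares were 2.22% and 1.02%, and by Il13 they were 0.938% and 1.74%. Adora2a was short of 1.5-fold in both contrasts as counted. Relative to the median gene its log2 ratios were 0.67 and 0.65 by Il5 and 0.62 and 0.61 by Calca, past 1.5-fold in both libraries, as were 4.49% of genes by Il5 and 3.75% by Calca on that scale. Nmur1, with under 200 thinned UMIs, was not among the genes counted.

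**Figure D4:**
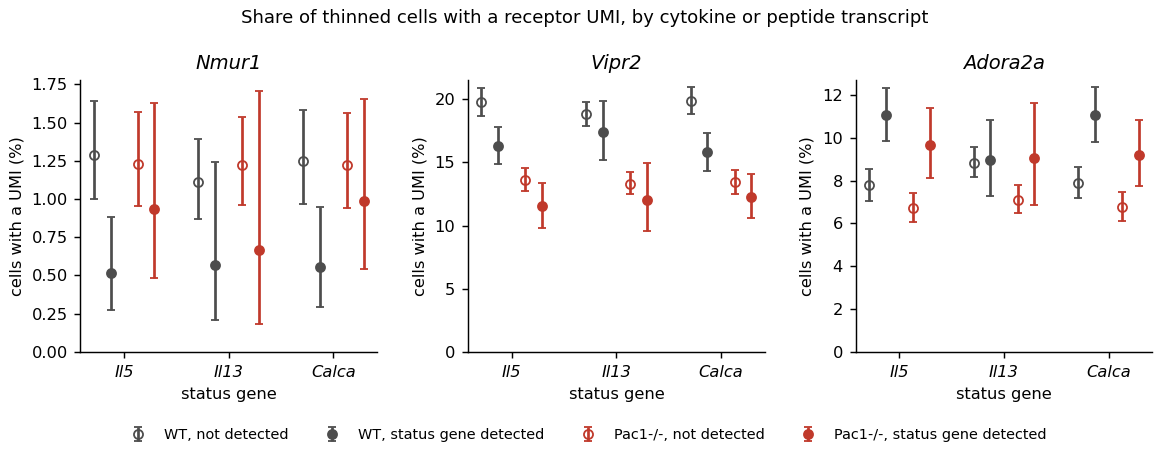
Percentage of cells, thinned to 1500 UMIs, in which Nmur1, Vipr2 or Adora2a was detected, among cells with (filled) and without (open) a UMI of Il5, Il13 or Calca, in WT (grey) and Pac1-/- (red), with exact Clopper-Pearson intervals. Adora2a lies higher in Il5+ (11.04% against 7.78% in WT) and Calca+ cells of both libraries. Nmur1 and Vipr2 lie lower, with overlapping intervals in Pac1-/- cells.

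In combined classes of Il5 and Il13 status, the WT levels of Vipr2 and Adora2a lay farther apart by Il5 than by Il13, a difference that was not tested. Vipr2 was at 162 CPM in Il5- Il13- and 150.2 CPM in Il5- Il13+ cells, and at 124 CPM in Il5+ Il13- and 127 CPM in Il5+ Il13+ cells. Adora2a was at 56.1, 55.7, 83.7 and 76.0 CPM in the same order, and for both receptors the intervals of Il13+ and Il13- cells overlapped within each Il5 class. The intervals of Il5+ and Il5- cells were apart among Il13- cells, but they overlapped among Il13+ cells. Among Il13+ Pac1-/- cells Adora2a ran the other way, at 69.0 CPM without and 56.4 CPM with Il5, with overlapping intervals. Nmur1 gave 62 UMIs in 4600 Il5- Il13- cells, 13 in 1984 Il5+ Il13- cells, 6 in 515 Il5- Il13+ cells and 0 in 535 Il5+ Il13+ cells. By the limit of 3 counts used here for a count of 0, those 535 cells could hold up to 3.74 CPM, below the 8.99 CPM (6.89 to 11.5) of the double-negative cells. In Pac1-/- cells the levels were 8.50, 7.81, 5.92 and 2.56 CPM in the same order, with 1 UMI in the 260 double-positive cells. The double-positive class thus had the lowest value for Nmur1 in both libraries, on very few transcripts. Its Pac1-/- interval (0.0649 to 14.3 CPM) covered the levels of the other classes. The WT limit of 3.74 CPM lay inside the interval of the Il5+ Il13- cells (2.33 to 7.47 CPM).

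With Calca added there were 8 classes. Vipr2 in WT was at 165 CPM (154 to 176) in cells without any of the 3 transcripts and at its lowest, 99.9 CPM (83.4 to 119), in Il5+ Il13- Calca+ cells. Adora2a in WT was at 53.3 CPM (47.2 to 59.8) in cells without any of the 3 and at its highest, 96.8 CPM (80.6 to 115), in the same Il5+ Il13- Calca+ cells. The intervals of other WT classes overlapped both values. In Pac1-/- cells the same class was at 81.6 CPM for each receptor and was neither the lowest for Vipr2 (50.8 CPM in Il5- Il13+ Calca+ cells) nor the highest for Adora2a (82.5 CPM in those cells). Over the 8 WT classes the levels of the receptor pair had a Pearson correlation of -0.84 and over the 8 Pac1-/- classes of -0.30, on a log scale. These classes are parts of 1 library each and differ in cell number.

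Vipr2 was lower in Pac1-/- than in WT cells in all 8 classes, and in 5 of them the interval of the ratio lay below 0. In triple-negative cells it was at 165 CPM in WT and 100.3 CPM in Pac1-/- cells, a log2 ratio of -0.72 (-0.87 to -0.57) as counted. For Adora2a the interval lay below 0 in 1 class, the triple-negative cells, with 53.3 and 44.2 CPM and a log2 ratio of -0.27 (-0.51 to -0.02). Since Pac1-/- cells were less often Il5+ or Calca+, the libraries were also set to the same WT shares of the 8 classes, an alternative added after seeing the data. The log2 ratio of Vipr2 relative to the median gene was then -0.81, against -0.80 with each library's own shares. That of Adora2a was -0.33, against -0.47, and that of Nmur1 -0.03, against 0.0024 (-0.46 to 0.47), where all UMIs had given 0.16. Vipr2 was lower in Il5+ and Calca+ cells, which were fewer in the Pac1-/- library. Equal shares could therefore not be expected to remove the lower Vipr2, and its value at equal shares decides nothing. The Adora2a difference was smaller at equal shares, and the part of the class shares in it was not tested.

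**Figure D5:**
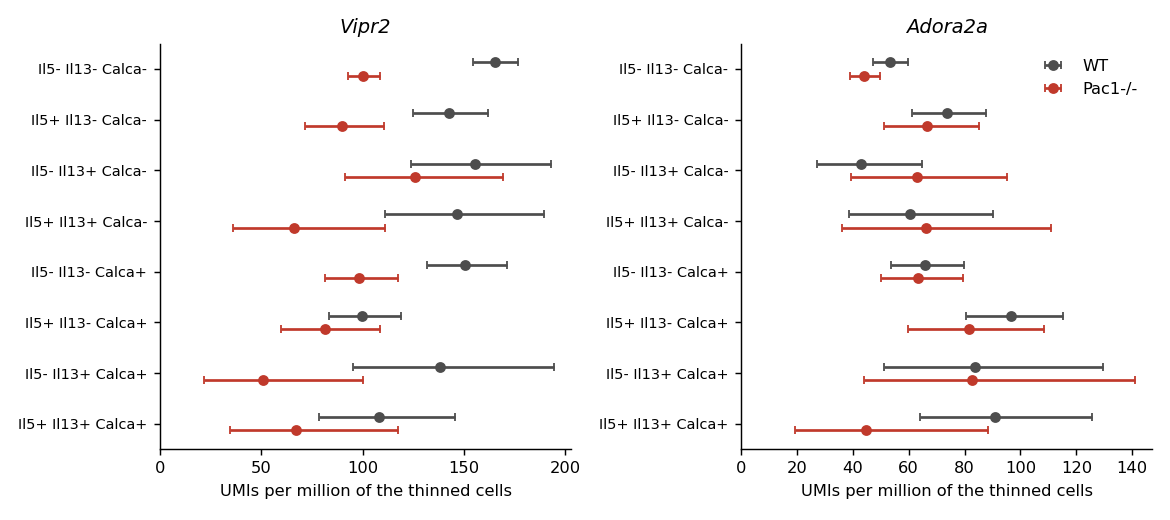
Level of Vipr2 and Adora2a in CPM of the thinned cells in 8 classes of Il5, Il13 and Calca status, in WT (grey) and Pac1-/- (red), with exact Poisson intervals. Vipr2 is lower in Pac1-/- cells in all 8 classes, while Adora2a of WT runs from 43.1 to 96.8 with its highest value in Il5+ Il13- Calca+ cells.

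Vipr2 and Adora2a, both coupled to Gs, were found together in 103 thinned WT cells, where independent detection gives 126 (ratio 0.82; 0.67 to 0.99). The same pair met in 78 Pac1-/- cells against 63.1 (ratio 1.24; 0.98 to 1.54). The ratios lay on opposite sides of 1, but the Pac1-/- interval included 1 and the WT interval ended just below it. Nmur1 and Vipr2 were found together in 15 WT cells against 14.7 and in 14 Pac1-/- cells against 10.2. Nmur1 and Adora2a met in 3 cells against 7.0 and in 4 against 5.61, with intervals that include 1.

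Cells with an Nmur1 transcript, 79 in WT and 77 in Pac1-/- cells, were compared with all other cells of their library, gene by gene. They held 160 CPM of Il5 against 644 CPM in WT, a log2 ratio of -2.01 (-2.74 to -1.36), and 147 against 351 CPM in Pac1-/- cells, -1.26 (-2.04 to -0.57). Il13 had log2 ratios of -1.89 (-3.34 to -0.77) and -1.59 (-3.22 to -0.37), and Calca of -0.76 and -0.61. This reads the same cells as the status comparison, now by the amount of cytokine transcript, and is no separate evidence. On that measure the Pac1-/- cells also showed lower Il5 in Nmur1+ cells.

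The other listed genes lower by 1.5-fold in Nmur1+ cells of both libraries were the nuclear receptors Nr4a2 (-0.89 and -0.85), Nr4a3 (-0.62 and -1.33) and Rora (-0.64 and -0.76), the last an ILC2 lineage factor, Crem (-0.64 and -1.09), a cAMP-responsive transcription factor, and Nfatc2 (-2.14 and -1.02), on 1 and 2 UMIs. Nr4a2, Nr4a3 and Crem were 3 of the 14 genes compared on the cAMP side, whose medians were -0.30 and -0.27. Of the 10 genes compared on the Gq and calcium side, Nfatc2 was the 1 lower and Plcb4, a phospholipase C, the 1 higher, with list medians of 0.18 and -0.14. Plcb4 was at 110 against 55.2 CPM in WT (0.99; 0.07 to 1.77) and 139 against 73.0 CPM in Pac1-/- cells (0.92; 0.11 to 1.63). Gata3, the ILC2 master factor, had log2 ratios of -0.06 (-0.32 to 0.19) and -0.02 (-0.31 to 0.25). Among 5009 genes 3.91% were higher and 4.21% lower by 1.5-fold in both libraries, most on few UMIs. In WT alone 918 were higher and 820 lower, and in Pac1-/- cells alone 817 and 851. How much of the overlap counting error gives was not tested. The 5 highest were Smn1, Smim15, Tbc1d10b, Ugdh and Nubp1, with 5 to 12 UMIs each in Nmur1+ cells of a library, and the 5 lowest were Bmyc, Cd74, Traf4, Cxcl3 and Trim30a, with 0 to 2 UMIs. The intervals of Tbc1d10b, Ugdh, Nubp1, Traf4 and Trim30a included 0 in both libraries.

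Few genes differed by 1.5-fold in both libraries between thinned cells with and without a Vipr2 transcript. Vipr2 was found in 18.6% of WT cells with thinning and 46.1% without it, and in 13.2% and 41.8% of Pac1-/- cells. Many cells counted here as without Vipr2 therefore held it in their full counts. For that reason the contrast cannot decide how far cells with the receptor differ from cells without it. Of 5008 genes 0.00% were 1.5-fold higher in both libraries and 0.120%, or 6 genes, as much lower. The 5 lowest were the haemoglobin gene Hbb-bs (-3.16 and -5.32), the airway club cell gene Scgb1a1 (-2.35 and -1.79), the antigen presentation gene Cd74 (-2.03 and -1.78), Raph1 (-0.79 and -1.06) and Plaur (-0.88 and -0.74), the urokinase receptor. Hbb-bs and Scgb1a1 are genes of other cell types, so that Vipr2+ barcodes held less of their RNA, whose part in these contrasts was not tested. The source of the Cd74 RNA was not tested either. No member of the 9 fixed gene lists passed 1.5-fold in both libraries. Il5 had log2 ratios of -0.40 (-0.50 to -0.31) and -0.37 (-0.53 to -0.21), and Ramp3, an accessory subunit of calcitonin family receptors, -0.49 and -0.44. The Il5 values read the same cells as the status comparison and are no separate evidence.

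Cells with an Adora2a transcript held more Il5, Calca and Csf2 than other cells of their library, by less than 1.5-fold in WT and by less or more than that in Pac1-/- cells. The 1 gene of 5008 that was 1.5-fold higher in both libraries (0.0200%) was Cxcl1, a neutrophil chemokine, at 349 against 194 CPM in WT (0.85; 0.68 to 1.01) and 194 against 119 CPM in Pac1-/- cells (0.71; 0.44 to 0.96). Il5 was at 914 against 612 CPM in WT, a log2 ratio of 0.58 (0.48 to 0.68), and at 554 against 333 CPM in Pac1-/- cells, 0.73 (0.58 to 0.88). Calca had log2 ratios of 0.49 and 0.55, Csf2 (GM-CSF) of 0.38 and 0.62, and Ramp3 of 0.49 and 0.70. Il13 had 0.06 (-0.16 to 0.27) in WT and 0.83 (0.58 to 1.07) in Pac1-/- cells. For Il5, Il13 and Calca this reads the same cells as the status comparison and is no separate evidence.

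Of the 14 genes compared on the cAMP side, 0 were past 1.5-fold in both libraries in Adora2a+ cells, with medians of 0.19 and 0.07. Among them Nr4a1 had log2 ratios of 0.33 and 0.50, Nr4a2 of 0.30 and 0.76 and Nr4a3 of 0.37 and 0.71. Lower genes made up 0.699% of those compared, or 35, headed by Scgb1a1 (-2.22 and -1.31), Guf1, Mrto4, Timm50 and Polr2j, the last 4 on 6 to 11 UMIs in Adora2a+ cells of a library. Txnip, a gene high in resting lymphocytes, was the only member of the fixed lists past 1.5-fold in both libraries, at -0.60 (-0.84 to -0.36) and -0.68 (-0.91 to -0.47). It was 1 of 4 resting genes compared, and the medians of that list were -0.02 in WT and 0.05 in Pac1-/- cells. Of the listed genes lower in Nmur1+ cells, Il5, Calca, Nr4a2, Nr4a3 and Rora were higher in Adora2a+ cells of both libraries, where Rora had 0.29 and 0.46. Il13 was also lower in Nmur1+ cells, but its interval in WT Adora2a+ cells included 0. Crem and Nfatc2, also lower in Nmur1+ cells, were not past 1.5-fold in either direction in both libraries of Adora2a+ cells. Their values are not given here, so the genes named do not stand for all those lower in Nmur1+ cells. These genes were picked for being lower in Nmur1+ cells, and no tally over the lists was made.

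The genes whose levels followed each receptor most closely were sought over the 16 groups made by the 8 classes in both libraries, as a description. For Vipr2, Tex10, Shtn1, Olfr1259, Mrs2 and Serinc3 had Pearson r of 0.91 each, where 95% of 6998 genes lay below 0.70. The difference of Vipr2 between libraries enters these values. Over the 8 WT classes and the 8 Pac1-/- classes apart, Tex10 had 0.97 and 0.71 and Shtn1 0.91 and 0.81. Olfr1259 had 0.83 and 0.75, Mrs2 0.84 and 0.92, and Serinc3 0.82 and 0.77. For Adora2a, Tle3 (0.86), Frmd4b (0.85), Abt1 (0.83), Gpr132 (0.83) and Pfkp (0.82) led, with 95% of genes below 0.45. For Nmur1, Vamp2 (0.90), Specc1 (0.89), Aen (0.89), Sarnp (0.88) and Glmp (0.88) led, with 95% below 0.64. The groups share 2 libraries and several hold few cells, so high values occur for many genes.

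Transcripts of the peptide ligands of these receptors were not detected in the sorted cells. Nmu, Nms, Vip and Adcyap1 gave 0 UMIs in both libraries, which by the same limit of 3 counts allows up to 0.0550 CPM in WT and 0.0514 CPM in Pac1-/- cells. Calca, in contrast, was at 493 CPM in WT and 351 CPM in Pac1-/- cells, a log2 ratio of -0.68, or -0.49 as counted, which is short of 1.5-fold. Of the genes that make, take up or degrade adenosine and peptides, 0 of 6 compared were past 1.5-fold, next to 12.8% lower and 8.22% higher among all genes, so that a list of 6 says little. Nt5e, the ectoenzyme CD73 that releases adenosine from AMP, was at 57.0 and 64.0 CPM with a ratio of -0.02 (-0.09 to 0.05), while Entpd1, the enzyme before it, gave 6 and 8 UMIs.

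Of 40 other neural and neuropeptide receptors, 13 were at 0 UMIs in both libraries and 16 were abundant enough to compare. The near relatives of the 4 receptors, Nmur2 and Adcyap1r1, were at 0, Adora1 gave 1 and 0 UMIs, and Adora3 3 and 5. Adora2b, the low-affinity adenosine receptor, gave 81 and 29 UMIs, a log2 ratio of -1.77 (-2.43 to -1.14). Also lower in the Pac1-/- library were Calcrl (178 and 95.8 CPM; -1.08) and Ramp3 (197 and 114 CPM; -0.97), parts of CGRP and adrenomedullin receptors, Ret (-0.91), Adrb1 (-2.02) and Adra2a (-1.81), the last pair on 50 and 52 UMIs in WT. Ramp2 and Hrh4 were higher, on 30 and 95 and on 15 and 43 UMIs, and Ramp1, the CGRP receptor partner, was at 253 and 313 CPM with 0.12 (0.09 to 0.15). The list thus had 6 lower and 2 higher of 16 and a median of -0.04, next to 12.8% lower and 8.22% higher among all genes, and the same 6 and 2 genes were past 1.5-fold as counted.

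Of 18 genes on the Gs and cAMP side, 5 were past 1.5-fold lower in the Pac1-/- library and 1 was higher, with a list median of -0.35, next to 12.8% lower and 8.22% higher among all genes. Lower were Crem (451 and 222 CPM; -1.21), Nr4a1 (1882 and 1133 CPM; -0.92), Nr4a3 (706 and 355 CPM; -1.18), Sik1 (-0.62), a kinase induced by cAMP, and Pde4b (-0.59), which degrades cAMP. Adcy7, an adenylyl cyclase of lymphocytes, was higher (37.7 and 72.2 CPM; 0.75). As counted, a reading of the lists added after seeing the data, Sik1 (-0.44) and Pde4b (-0.40) were short of 1.5-fold, which left 3 lower and 1 higher. The G protein Gnas itself was at 857 and 838 CPM (-0.22). Of 16 genes on the Gq and calcium side, 3 were lower (Itpr1, -0.60; Egr2, -1.20; Egr3, -0.74) and 0 higher, with a median of -0.07, next to 12.8% lower and 8.22% higher among all genes. These calls depended on the scale: as counted Egr2 (-1.01) was the 1 lower, Itpr1 (-0.41) and Egr3 (-0.55) fell short, and Gna11 (0.66), a G protein of the Gq family, and Rcan1 (0.65), a calcineurin regulator, were higher. Plcb4 had 0.19 (0.12 to 0.26) relative to the median gene.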

How the data were processed

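Lung ILC2s pooled by genotype were profiled with 10x Genomics 3′ v3.1 chemistry, 1 library per genotype. The deposited values are raw UMI counts per gene and barcode, made by the authors by alignment to mm10 with Cell Ranger (6.1.1 in the submitters' processing notes, 4.0.0 in the file header), not normalized. Doublets were not called. Cells had at least 500 genes and at most 10% mitochondrial UMIs. CPM carry exact Poisson intervals, shares exact Clopper-Pearson intervals (differences by combining the bounds of both shares) and ratios exact conditional binomial intervals, all at 95% and for counting error only. Ratios between libraries are relative to the median of genes with at least 50 UMIs. Shares, status and classes use cells thinned to 1500 UMIs, the largest of 5 depths that kept 90% of cells of each library. Contrasts within a library use genes with at least 200 thinned UMIs, and likeness uses log2(CPM + 10) over genes with at least 500 UMIs. Past the fold means 1.5-fold. Named genes were the members, the 5 most alike, the 5 highest and 5 lowest of each contrast (members with at least 200 UMIs in each library) and the listed genes. Members and lists were chosen with earlier results of these data known. Levels, ratios and counts were tested on simulated data. Python 3.11.15, numpy 2.4.6, scipy 1.17.1, pandas 2.3.3 and matplotlib 3.10.9 were used. The alternatives are other filters, depths, scalings and minimums.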

Additional observations from a re-analysis of the deposited data

Results flagged for a closer look

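Barcodes outside the cell filter, which entered no comparison, also held receptor transcripts, more than the 3 counts that a count of 0 allows. In WT these 2472 barcodes (median 599 UMIs) held 211 UMIs of Vipr2, 86 of Adora2a and 12 of Nmur1. In the Pac1-/- library 2408 barcodes (median 596 UMIs) held 232, 78 and 13. Vipr2 was at 132 CPM (114 to 151) in these WT barcodes and 119 CPM (104 to 136) in the Pac1-/- ones, so its intervals overlapped here while they did not in cells. What these barcodes are was not tested.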

How the results depend on the processing

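Of 237 values recomputed under an alternative, 201 stayed within the interval of the reported value (or within 1.5 times a count), 36 moved and 0 changed the direction of a called value. Wide intervals, as for Vipr1 (-1.40 to 1.45) and many Nmur1 ratios, are easy to stay within, so the tally is no measure of stability for them. Of the gene counts 15 of 30 moved. Direction was judged for called values only, and Nmur1 by Calca in Pac1-/- cells, not called, went from -0.35 to 0.13 at the marker gate. The log2 ratio of Vipr2 between libraries was -0.86 without barcodes over 2 times the median UMIs, -0.59 as counted and -0.83 as a mean of the CPM of each cell, all past 1.5-fold lower, the value as counted only just. That of Adora2a was -0.33 as counted and -0.33 at the WT class shares. Over 20 thinnings the WT share of Vipr2 ran from 18.5% to 20.03% and the Pac1-/- share from 12.6% to 14.0%. Share differences in percentage points changed with the thinned depth: for Vipr2 they were -3.98 at 1000 and -8.19 at 3000 UMIs, -4.28 without thinning and from -7.02 to -5.34 over 20 thinnings, so that the reported -5.42 lay near the small end, and for Adora2a -3.02 at 3000 UMIs, -0.19 without thinning and from -2.32 to -0.35 over 20 thinnings. For Nmur1 the difference was 2.24 points without thinning and from -0.09 to 0.54 over 20 thinnings. In status contrasts of WT, Nmur1 by Il5 was -2.44 without barcodes over 2 times the median UMIs, Adora2a by Il5 was 0.32 from all UMIs, and Adora2a by Il13 was 0.39 with status from all UMIs and 0.37 thinned to 1000 UMIs. In Pac1-/- cells thinned to 1000 UMIs, Nmur1 was -1.97 by Il5 and -1.32 by Calca (in WT -0.87 and -0.90, with intervals that include 0), Vipr2 -0.60 by Il13 and Adora2a 0.19 by Calca. In WT cells thinned to 1000 UMIs Nmur1 by Il13 had no value, since Il13+ cells then held 0 UMIs. A minimum of 100 UMIs gave 391 genes higher and 428 lower in Nmur1+ cells (196 and 211 in the main contrast), 8 and 11 in Vipr2+ cells (0 and 6), and 9 and 130 in Adora2a+ cells (1 and 35). The marker gate, which kept 6122 WT and 4391 Pac1-/- cells with Gata3 or Il1rl1 and under 2 UMIs of other cell types, gave 1 and 1 in Vipr2+ cells and 10 higher in Adora2a+ cells. The cause of these moves was not tested. The small numbers of Nmur1 and Vipr1 UMIs limit what can be said of these receptors. No paired analysis was possible because each genotype has 1 library.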
